A study of Mus musculus with 141 samples.

Results

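The kidneys described here are the 32 that lay at the ends of a 2-gene injury score among 47 kidneys of the Collaborative Cross, in a series of 141 libraries. The score was the mean of log2(CPM + 1) of Havcr1 and Lcn2, where CPM is a count scaled to the total of its library without the ribosomal RNA gene Rn45s. Members were thus chosen by measured values of those genes. The 16 kidneys with the highest score form the high group, the 16 with the lowest the low group, and 15 lie between. All mice were untreated males, 1 per strain and 8 to 12 weeks old, that had spent 6 hours a day on weekdays for 2 weeks in chambers with clear air and ate a wafer diet, so no group received an injury and each kidney stands for its own strain. Liver, lung and kidney of each mouse were sequenced as total RNA after ribosomal depletion. Strain and animal cannot be told apart, since each strain gave 1 mouse.

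Havcr1 encodes KIM-1, a receptor that proximal tubule cells put on their surface after damage and with which they take up dead cells. Lcn2 encodes NGAL, an iron-siderophore binding protein released by damaged tubules, by neutrophils and, in the acute-phase response, by liver. In an injured kidney, surviving proximal tubule cells lose transporters and brush border proteins, take on genes such as Sox9, and divide, and cells that fail to repair keep Vcam1. Macrophages and lymphocytes enter, and fibroblasts lay down collagen. These steps supplied some of the gene lists used below, and the others cover kidney segments, other cell types and response genes. All lists were chosen with earlier results of these data known.

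The score was set by few reads. In the high group Havcr1 ranged from 0.183 to 7.73 CPM with a median of 3.20, from 1 to 48 counts per library. In the low group it ranged from 0 to 0.646 CPM with a median of 0.135. There 13 of 16 libraries held 3 counts or fewer, which was taken as not resolved, as did 4 of 16 in the high group. Lcn2 ranged from 1.93 to 68.6 CPM in the high group with a median of 3.91, and from 0.233 to 2.05 CPM in the low group with a median of 1.11. It had 3 counts or fewer in 0 high and 4 low libraries. These values chose the groups and are a description only.

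The score ran from 1.28 to 4.59 in the high group with a median of 2.0, and from 0.151 to 0.891 in the low group with a median of 0.678. The threshold lay in a dense part of the range. The last kidney of the high group, CC038, had a score of 1.28 against 1.27 in CC040, the first outside it. On the other side, CC061 was outside the low group at 0.907 and CC042 inside it at 0.891.

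Both scoring genes marked partly different kidneys. Across the 47 kidneys their log2 values had a Pearson r of 0.468 and a Spearman rho of 0.267, and without the kidney of CC020 these were 0.327 and 0.221, given as a description of low counts in libraries of unequal depth. The 16 kidneys highest in Havcr1 alone and the 16 highest in Lcn2 alone shared 7 kidneys, and 4 kidneys were among the 16 highest in Havcr1 and the 16 lowest in Lcn2. CC015 had the most Havcr1, 7.73 CPM, with Lcn2 at 1.93 CPM. CC046 had 15.3 CPM of Lcn2 from 190 counts and 0.403 CPM of Havcr1 from 5 counts.

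**Figure D1:**
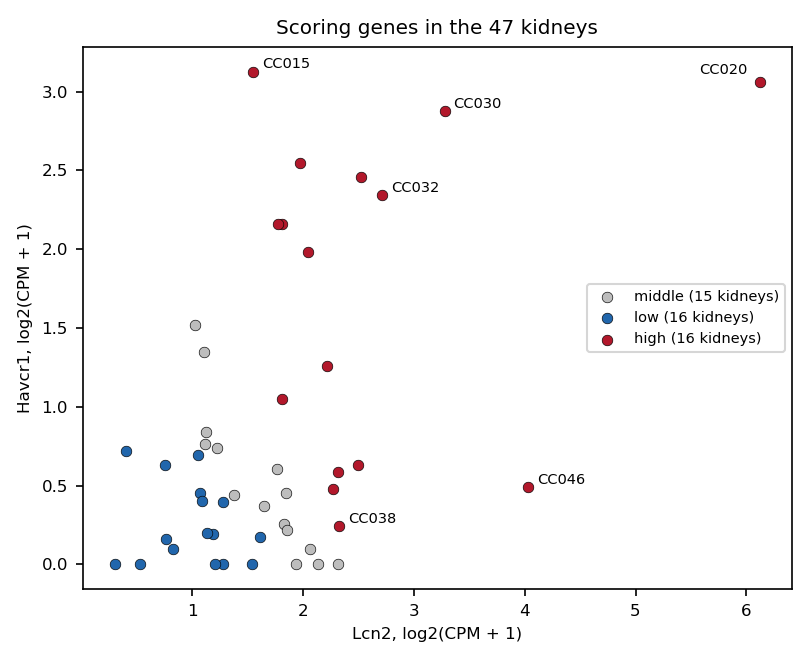
Havcr1 against Lcn2 in each of the 47 kidneys, both in log2(CPM + 1), with points coloured by score group. CC020 stands alone at the right with Lcn2 at 6.12, CC046 is high in Lcn2 only, and CC015 has the highest Havcr1 at 3.13.

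One kidney stood apart from all others. CC020 had the highest score, 4.59, and the next, CC030, had 3.08. Its library was shallow, with 2041030 counts without Rn45s and 15 counts of Havcr1 and 140 of Lcn2. In kidney, the counts of called genes, the medians of several lists and some slopes are therefore given with and without it. Other values include it unless stated. This kidney was singled out after its values were seen.

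Depth without Rn45s was 2006015 to 12409145 counts in the high group (median 5762567) and 2090630 to 14217228 in the low group (median 6274550). The means did not differ detectably (log2 difference -0.05, two-sided permutation test, p = 0.848), nor did those of the livers (0.24, p = 0.412) and lungs (-0.17, p = 0.474) of the same mice. Rn45s took a median of 24.8% of the reads in the high and 42.2% in the low group. Lars2, whose counts enter the denominator of the score, took a median of 13.97% and 21.1% of the rest. When Lars2 was also left out of the total, 15 of the 16 high and 13 of the 16 low kidneys stayed in their group. The tissue label held throughout, since the proximal tubule genes Slc34a1 and Lrp2 reached at least 1414 and 583 TPM in every kidney, against at most 59.3 and 122 TPM in any liver or lung. Kidney libraries also held reads of Alb, a liver gene, and Sftpc, a lung gene, up to 550 and 117 TPM. Livers had at least 18517 TPM of Alb and lungs at least 3762 TPM of Sftpc. Umod, of the thick ascending limb, ranged from 2.74 to 87.9 TPM over the kidneys.

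The first question was whether kidneys with high injury genes differ in other genes from those with low ones. No gene passed. Among 11828 genes tested with limma-voom (without the scoring genes, Benjamini-Hochberg adjusted q ≤ 0.1), 0 were called, which is 0% of the genes tested, and the smallest q was 0.5005. At an unadjusted p under 0.05, 770 genes (6.51%) stood out, 396 higher (3.35%) and 374 lower (3.16%) in the high group. The edgeR quasi-likelihood test also called 0 genes, with 740 under an unadjusted p of 0.05, and DESeq2 called 5, with 797. Without CC020 limma-voom called 0, with 730 (6.2%) at an unadjusted p under 0.05. The median standard error of a log2 fold change was 0.14.

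The gene with the smallest p was Acy1, aminoacylase 1, which frees amino acids from their acetylated forms in the proximal tubule. It lay between 0.142 and 2.26 CPM in the high group (median 0.743) and between 0.813 and 3.81 CPM in the low group (median 1.93). The groups overlapped, and most values rest on few counts. Its log2 fold change was -1.52 ± 0.32 (SE, 16 against 16 kidneys, limma-voom, q = 0.50). It was called by DESeq2 (-1.37, q = 0.0903) and when library size was added as a covariate (-1.48, q = 0.0510).

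Matn2, an extracellular matrix protein, had the smallest p among genes higher in the high group. It ranged from 9.79 to 36.0 CPM in the high group with a median of 17.8, and from 7.17 to 21.0 CPM in the low group with a median of 12.0. Only 4 of 16 high kidneys lay above all low ones. Its log2 fold change was 0.59 ± 0.14 (q = 0.597 by limma-voom and 0.0903 by DESeq2).

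DESeq2 further called C7, a complement component of the membrane attack complex, Hrg, a plasma glycoprotein made mainly by liver, and Gm12185. C7 was 2.44 to 47.5 CPM in the high group (median 14.9) and 1.43 to 13.5 CPM in the low group (median 5.61), and 8 of 16 high kidneys lay above all low ones. Its log2 fold change was 1.22 ± 0.36 with q = 0.597 by limma-voom, and 1.42 with q = 0.0415 by DESeq2. Hrg had medians of 3.12 CPM in the high and 7.20 CPM in the low group, but single low kidneys reached 102 CPM, and its q was 0.732 by limma-voom and 0.0127 by DESeq2. The hepatocyte list, as the mean difference in log2(CPM + 1) from the 47-kidney median, reached 2.77 in the low group (CC027, group median -0.17). In the high group it reached 1.59 (CC033, group median 0.26). The part of liver transcripts in the values of Hrg was not tested. Gm12185 had medians of 0.644 and 1.29 CPM, with a highest value of 34.1 CPM in the low group, and its q was 0.799 and 0.0903.

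Other genes with small p-values, named after their values were seen, did not pass either. Tmem221 had a log2 fold change of -1.20 ± 0.27, the zinc finger gene Zfp592 of -0.30 ± 0.07, Herpud1, a gene of the endoplasmic reticulum stress response, of -0.42 ± 0.11, and Colgalt2, a collagen galactosyltransferase, of 0.84 ± 0.22, with q from 0.569 to 0.597. Mgl2, a lectin of macrophages and dendritic cells, was at 0.753 to 26.9 CPM in the high group and 0 to 6.44 CPM in the low group, with a log2 fold change of 1.21 ± 0.33 (q = 0.597). All of these overlapped between groups.

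The lists were described by counts and medians beside the same over all genes tested in kidney, of which 49.8% had a log2 fold change above 0 and whose median was -0.00073. Of the 32 injured tubule genes other than the scoring genes, 21 were tested, 15 lay above 0 and the median was 0.15. Vim, an intermediate filament of dedifferentiated cells, was at 32.4 to 124 CPM in the high group and 29.3 to 82.6 CPM in the low group (log2 fold change 0.34 ± 0.15, q = 0.734). Dcdc2a, a doublecortin family gene, was at 10.3 to 104 CPM against 5.02 to 21.7 CPM (0.62 ± 0.22, q = 0.671). Krt8, a keratin of simple epithelium, lay on the other side with medians of 144 CPM in the high and 167 CPM in the low group (-0.35 ± 0.17, q = 0.762).

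Several familiar injury genes gave next to no counts in any kidney, among them Timp1 (at most 1 count), Lgals3 (2), Cdkn1a and Gdf15 (3), Cd44 (7) and Spp1 (16). Spp1 encodes osteopontin, which kidney tubules are known to make in quantity. Such values describe these count tables, and nothing is read from them about expression.

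Genes of matrix and myeloid cells leaned toward the high group without passing. Of 19 tested stroma and matrix genes, 18 lay above 0, the median was 0.29, and 4 had an unadjusted p under 0.05. Col3a1, the collagen III chain, ranged from 47.3 to 692 CPM in the high group with a median of 98.0, and from 35.4 to 168 CPM in the low group with a median of 52.3. The high value is that of CC020, and the groups overlap. Its log2 fold change was 0.85 ± 0.25 (q = 0.597), and 0.71 without CC020. Col1a2 had medians of 76.3 and 59.1 CPM (0.44 ± 0.19, q = 0.734, and 0.71 by DESeq2).

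Of 20 tested macrophage and myeloid genes, 17 lay above 0, with a median of 0.26 and 2 at an unadjusted p under 0.05. Ccr2, the chemokine receptor of incoming monocytes, was at 4.21 to 37.6 CPM in the high group (median 14.5) and 3.13 to 21.6 CPM in the low group (median 6.77), with a log2 fold change of 0.63 ± 0.29 (q = 0.740). These are whole kidneys, so more cells of a type and more RNA per cell cannot be told apart.

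Proliferation genes lay above 0 in 17 of 18 cases with a median of 0.23, and 3 had an unadjusted p under 0.05. Cdk1, the kinase that drives mitosis, was at 0.757 to 8.06 CPM in the high group and 0 to 3.98 CPM in the low group (0.77 ± 0.33, q = 0.733). The urothelium list had 8 of 9 genes above 0 and a median of 0.37, and none of them had an unadjusted p under 0.05. Its genes mark the lining of the renal pelvis, and the list ranged from -1.10 in CC035 to 1.52 in CC028 in the high group (median 0.12) and from -0.55 to 1.30 in the low group (median -0.07), where CC059, the kidney with the lowest score, was the highest. The part of this tissue in other results was not tested.

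Proximal tubule genes leaned the other way, with 7 of 33 above 0, a median of -0.13, and 4 lower ones at an unadjusted p under 0.05 (Slc7a9, Ass1, Dao and Hao2). Without CC020, when 50% of all genes lay above 0, the medians of these lists moved toward 0, to 0.24 for stroma and matrix, 0.20 for macrophages, 0.13 for proliferation, 0.09 for injured tubule and -0.08 for proximal tubule. The interferon list (11 of 22 genes above 0), the p53 list (7 of 13) and the acute phase and complement list (8 of 17) were split evenly. Immediate-early and heat shock genes had 5 of 20 above 0 and a median of -0.11.

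**Figure D2:**
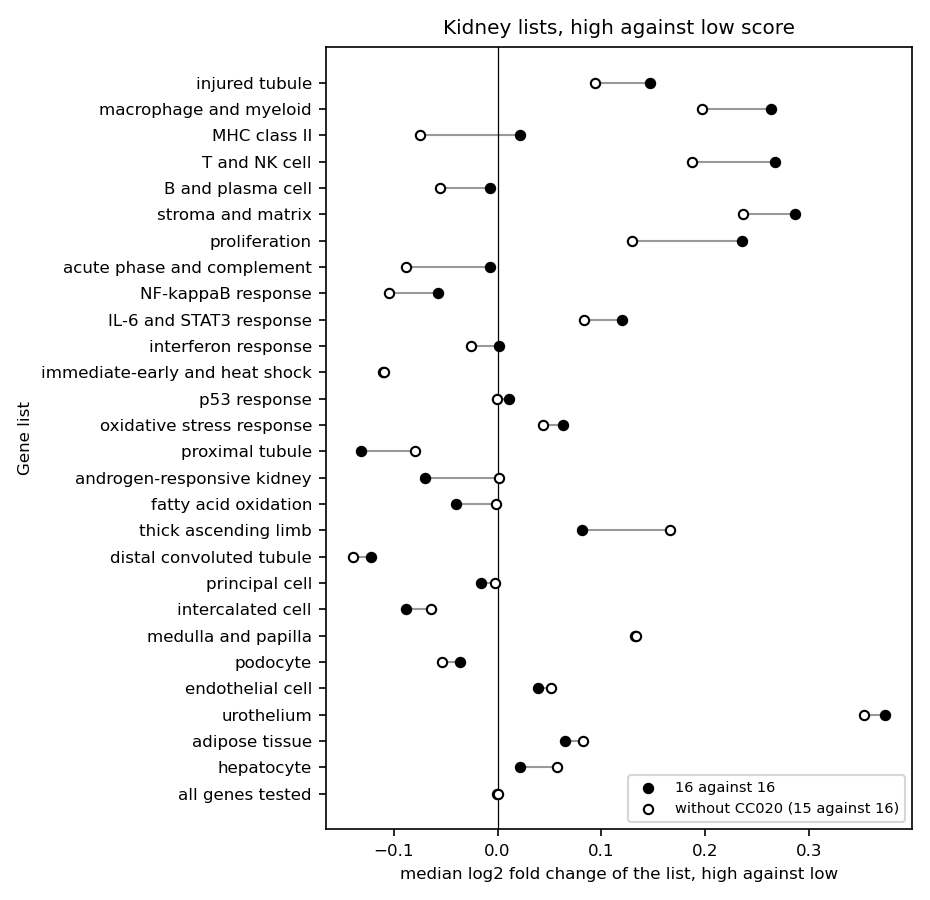
Median log2 fold change of the tested genes of each list between high and low kidneys, with all 16 high kidneys (filled) and without CC020 (open). Urothelium, stroma, macrophage and T cell lists lie furthest right and the proximal tubule list furthest left among the filled points, and lists of immune cells, matrix and proliferation shift to the left without CC020.

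On total counts without TMM the median over all genes tested in kidney moved to 0.13, and list values there are read against it. Stroma and matrix (0.43), macrophage (0.40) and proliferation (0.31) genes stayed above it and proximal tubule genes (-0.0022) below it. With Havcr1 alone as the score, the stroma median was 0.03 and 12 of 19 genes lay above 0. With Lcn2 alone it was 0.35 with 18 of 19. The difference between these definitions was not tested.

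When the score was used as a number over all 47 kidneys, 227 of 11851 genes (1.92%) had a slope past q ≤ 0.1, 173 of them rising with the score (1.46%) and 54 falling (0.456%), beside 1319 (11.1%) at an unadjusted p under 0.05. Without the kidney of CC020, 0 of 11901 genes passed, with 824 (6.92%) at an unadjusted p under 0.05, and 0 passed without CC020 and CC030. CC020 held the highest value of the 47 kidneys in 152 of the 173 genes and the lowest in 35 of the 54. The slopes below are therefore values of a fit that 1 shallow library decided.

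Called genes that rose with the score included, by list, 7 of 19 stroma and matrix genes (Col1a1, Col1a2, Col3a1, Col6a1, Tagln, Bgn and Mgp), 7 of 20 macrophage genes (Cd14, Lyz2, Lyz1, Mrc1, Cx3cr1, Ccr2 and Mpeg1), 6 of 17 proliferation genes (Mki67, Top2a, Cdk1, Plk1, Rrm2 and Kif11), 4 of 20 injured tubule genes (Vcam1, Anxa3, Dcdc2a and Aldh1a2) and 3 of 17 acute phase and complement genes (among them Lbp and C3). The slope of Col3a1 was 0.63 per unit of score (q = 0.000482 by limma-voom) and 0.43 without CC020. Lyz2, lysozyme of macrophages, had a slope of 0.63 (q = 0.0160) and 0.43 without CC020, and Mki67 had 0.51 (q = 0.0488) and 0.28. Among genes that fell, Dnase1 had a slope of -0.46 (q = 0.0136), Cpt1a, which brings fatty acids into mitochondria, of -0.14 (q = 0.0175), and Egf, made by the distal nephron, of -0.28 (q = 0.0762) against 0.02 without CC020.

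In the kidney of CC020, genes of injured tubule, leukocytes, matrix and cell division were high together and transport genes low. This is a description of 1 library with no replicate. It held the highest value of all 47 kidneys in 1226 of 11851 genes (10.3%) and the lowest in 920 (7.76%). In the other 46 kidneys these numbers ranged from 67 to 543 (median 192) and from 66 to 635 (median 166). Depth bears on such ranks, and its part was not tested. Intervals below are exact 95% Poisson intervals of the count, which cover counting error only.

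Of the tested injured tubule genes, CC020 was highest of 47 in 15 of 20 and above the median of the others in all 20, against 5782 of 11851 genes overall. Vcam1, the adhesion molecule of proximal tubule cells that fail to repair, was at 160 CPM (95% interval 142 to 179) and at 6.68 to 49.2 CPM in the other kidneys (median 14.2). Clu, the chaperone clusterin, was at 841 CPM (800.1 to 884) against 37.7 to 244 CPM (median 132). Another 12 listed genes were too low to be tested, and over all 32 CC020 was the highest of 47 in 20. Of the untested ones, Sox9, the transcription factor of regenerating tubule, was at 15.04 CPM (9.99 to 21.7) from 28 counts and at most 1.90 CPM elsewhere. Krt20, also untested, was at 9.13 CPM (5.32 to 14.6) against at most 3.36 CPM. Anxa3, Dcdc2a and Aldh1a2 were 5.68, 6.12 and 14.2 times the median of the other kidneys. None of the other 46 kidneys reached these levels.

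Transport genes were low in the same kidney. Proximal tubule genes lay above the median of the others in only 5 of 33 cases and at the lowest of 47 in 9. Slc34a1, the phosphate transporter, was at 2628.5 CPM against 3310 to 7309 CPM elsewhere (median 5134), and Lrp2, the endocytic receptor megalin, was at 5506 CPM against 7810 to 14721 CPM (median 10998). Both were about as far down, at 0.512 and 0.501 times the median. Other segments were not alike. Egf was at 94.5 CPM (81.1 to 110) against 357 to 1014 CPM (median 622), or 0.152 times the median, and Slc12a1, the salt transporter that loop diuretics block, at 18.8 CPM (13.1 to 26.1) against 21.8 to 192 CPM (median 52.2). Of the thick ascending limb list 7 of 12 and of the intercalated cell list 8 of 12 were the lowest of 47. The principal cell list was less lowered (2 of 8 lowest, 3 of 8 above the median of the others), and 7 of 12 medulla and papilla genes lay above that median. Slc7a13, an amino acid transporter of male proximal straight tubules, was at 334 CPM against 755 to 2080 CPM, and the androgen-responsive list as a whole was the lowest of 47 in 5 of 17 genes. Podocyte genes did not move as a group, with 5 of 10 above the median.

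Leukocyte and matrix genes were high in CC020. Of 20 macrophage and myeloid genes, 16 were the highest of 47, and the list lay 2.51 above its 47-kidney median on the mean log2(CPM + 1) scale, where the other kidneys spanned -0.93 to 1.38. Mrc1, the mannose receptor of tissue macrophages, was at 125 CPM (109 to 142) against 5.27 to 24.4 CPM. All 4 tested T and NK cell genes were the highest of 47. The defining T cell gene Cd3e gave 7 counts and Cd8a none. Neutrophil genes S100a8 and Ly6g were at 0 counts, and nothing is read from this about neutrophils in so shallow a library. In this library 3 counts, the smallest number taken as resolved, equal 1.47 CPM without TMM. MHC class II genes lay 2.37 above their median, but H2-Aa at 452 CPM was second to the 1751 CPM of CC016, a kidney of the low group.

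Col1a1, the main chain of collagen I, was at 235 CPM (214 to 258) against 3.60 to 43.1 CPM, 22.1 times the median of the others. Of 19 stroma and matrix genes 13 were the highest of 47, as were 13 of 17 proliferation genes. Mki67, a marker of dividing cells, was at 118 CPM (103 to 135) against 5.03 to 66.9 CPM. C3, the central complement component, reached 1130 CPM (1083 to 1180) against 36.5 to 437 CPM, Serpina3n 48.3 CPM against at most 17.3 CPM, and Cyp4a14, a fatty acid hydroxylase, 278 CPM against 0.546 to 208 CPM. Hepatocyte list genes did not share this, with 6 of 11 above the median of the others and Alb at 36.5 CPM against a median of 52.6.

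**Figure D3:**
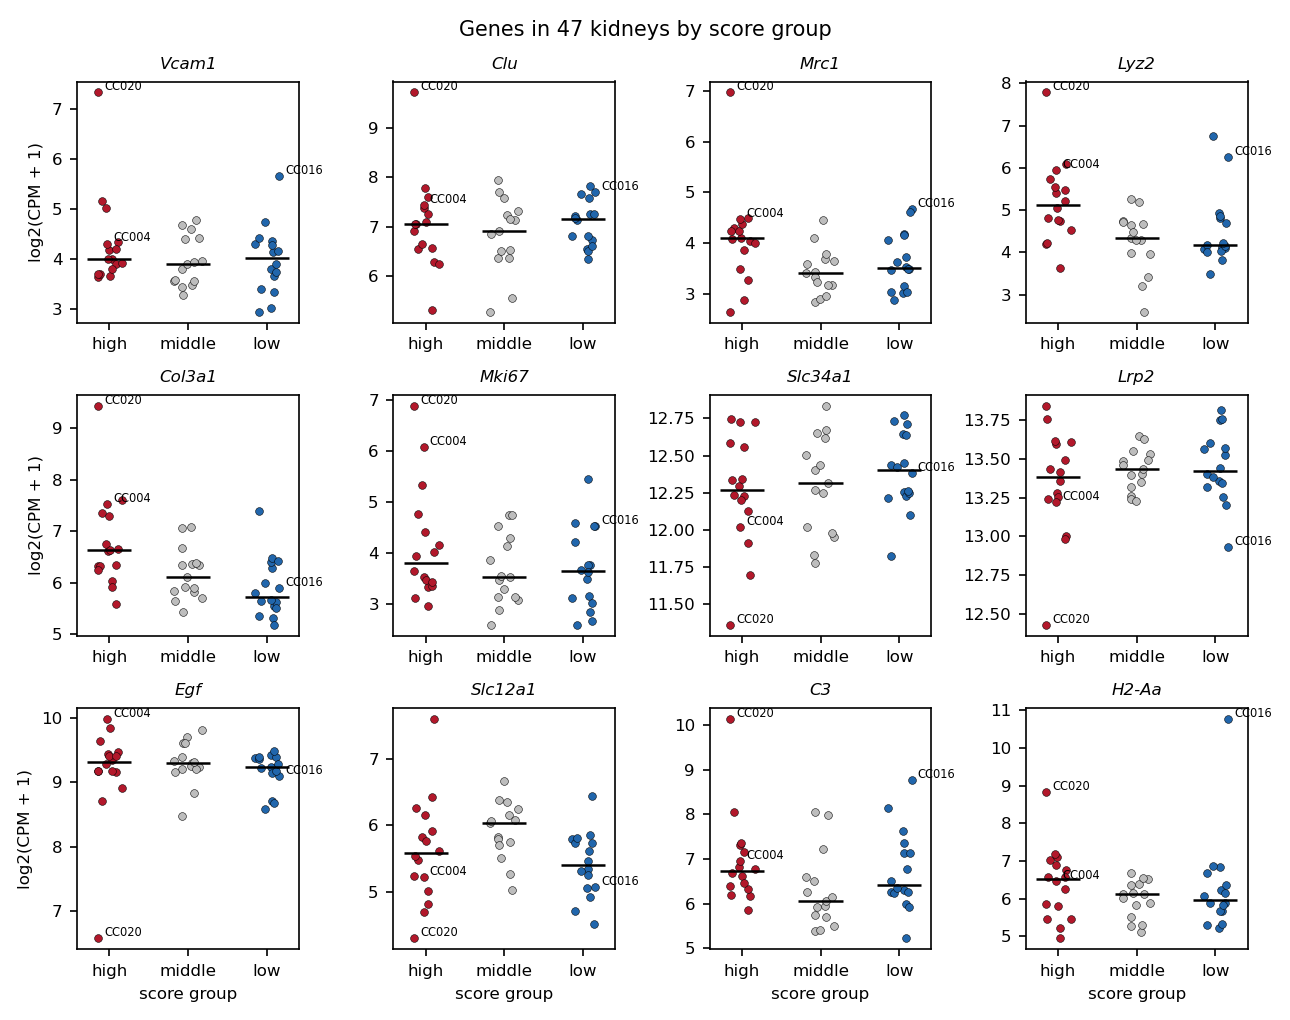
Levels of 12 genes in each of the 47 kidneys by score group, in log2(CPM + 1) after TMM scaling, with horizontal lines at the group medians and CC020, CC004 and CC016 named. CC020 is the highest point for Vcam1, Clu, Mrc1, Lyz2, Col3a1, Mki67 and C3 and the lowest for Slc34a1, Lrp2, Egf and Slc12a1, while the rest of the high group overlaps the low group.

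Liver and lung of the CC020 mouse did not stand apart by the same count. Its liver was the highest of 47 in 110 of 10151 genes (1.08%, the 36th place among the livers) and its lung in 124 of 13334 (0.930%, the 37th place). Both libraries were deeper than that of its kidney, with 8796028 and 5661578 counts without Rn45s against 2041030. The part of depth in these places was not tested. The macrophage list was in the 10th place among livers and the 21st among lungs, and the stroma list in the 33rd and 30th. The acute phase and complement list of its liver was in the 4th place, at 0.76 above the median where the other livers spanned -0.65 to 1.96. Lcn2 was at 55.5 CPM in its liver, in the 3rd place, and at 52.0 CPM in its lung, in the 31st.

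The other kidneys of the high group did not share 1 pattern. CC030, second by score, lay 0.91 above the median for macrophage genes, 0.61 for stroma and 2.25 for B and plasma cell genes, and its Jchain, the joining chain of secreted antibodies, was the highest of 47 at 481 CPM against a median of 13.9 among kidneys other than CC020. Its injured tubule list was at 0.30 and its proximal tubule list at -0.07.

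CC032, the third, was high in medullary tubule genes, with the thick ascending limb list at 0.83, the principal cell list at 0.74 and the medulla and papilla list at 0.89, each the highest of the 47 kidneys. Slc14a2, the urea transporter of the inner medulla, was at 76.2 CPM there and Slc12a1 at 192 CPM. Its proximal tubule list was at -0.42, lowest of the other 46. With the medullary list as a covariate, the comparison of the groups called 0 genes, with 691 at an unadjusted p under 0.05 against 770 without it. Since 0 genes were called without the covariate as well, this count cannot show the part of medullary content, which was not tested.

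CC033 and CC015, the next in score, did not lean toward these lists. Their injured tubule lists were at -0.10 and -0.25, their macrophage lists at -0.20 and -0.56 and their MHC class II lists at -0.98 and -1.08. In CC033, Lars2 took 44.5% of the counts without Rn45s. CC046, high by Lcn2 alone, had an injured tubule list at 0.28 and a macrophage list at 0.56, and its Slc7a11, the cystine transporter, was the highest of 47 at 5.89 CPM.

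CC004 came closest to CC020 in dividing cells, with a proliferation list at 1.34, macrophage list at 0.78, T and NK cell list at 1.04 and stroma list at 0.61, yet its injured tubule list was at 0.25 and its Egf, at 1014 CPM, was the highest of all kidneys. Over the 15 high kidneys without CC020, the injured tubule list ranged from -0.33 to 0.36 with a median of -0.0016, and over the 16 low kidneys from -0.25 to 0.35 with a median of -0.09. The macrophage list ranged from -0.93 to 0.91 (median 0.30) and from -0.66 to 1.38 (median -0.18). The groups overlapped in both lists.

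Low scores did not mean quiet kidneys. CC016, in the low group, had the highest MHC class II list (3.28) and interferon list (2.37) of all kidneys, with the macrophage list at 1.37, and CC068, also low, had a macrophage list at 1.38. Cxcl10, an interferon-induced chemokine, was at 41.1 CPM in CC016 and 23.6 CPM in CC020. The injured tubule lists of CC016 and CC068 were at 0.19 and -0.11.

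**Figure D4:**
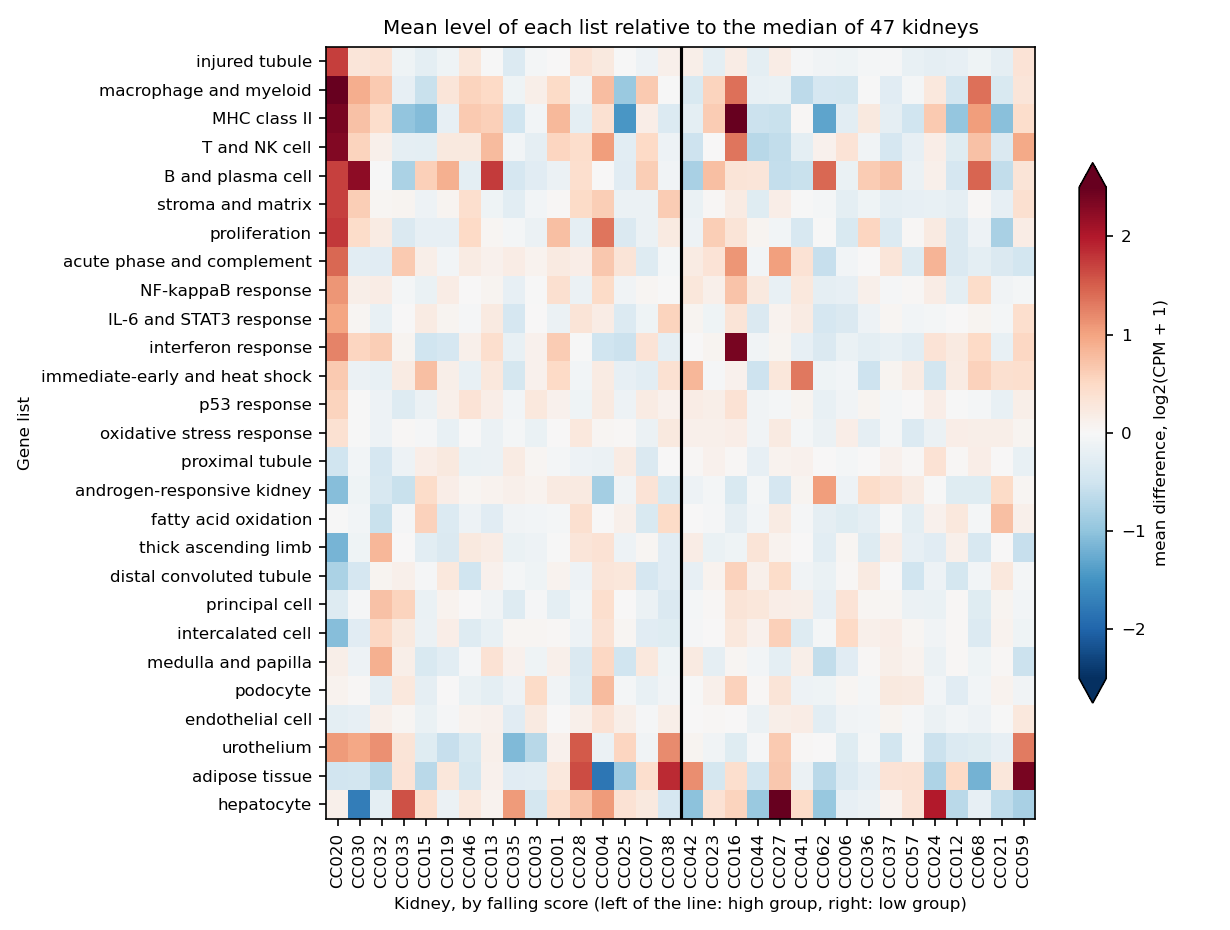
Mean level of each gene list in the 32 kidneys of both groups, as the mean difference in log2(CPM + 1) from the median of the 47 kidneys, with kidneys ordered by falling score and a line between the groups. Only the first column, CC020, is strongly raised in injured tubule (1.72), stroma (1.71) and macrophage (2.51) lists together with lowered thick ascending limb (-1.17) and intercalated cell (-1.07) lists.

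Livers and lungs of the same mice were compared next, as tissues the score did not use. In liver, 0 of 10191 genes were called (0%), with 474 (4.65%) at an unadjusted p under 0.05, of which 246 were higher (2.41%) and 228 lower (2.24%). The edgeR quasi-likelihood test called 0, with 516, and DESeq2 called 4, with 521. In lung, 0 of 13333 were called (0%), with 554 (4.16%) at an unadjusted p under 0.05, of which 288 were higher (2.16%) and 266 lower (2%). The edgeR test and DESeq2 also called 0, with 481 and 551. Along the score as a number, lung had 0 called genes with 384 (2.88%) at an unadjusted p under 0.05, and 0 with 496 (3.7%) without CC020.

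Acute-phase genes leaned toward the livers of mice with high kidney scores. Of 28 tested genes of the acute phase and complement list, 25 lay above 0 with a median of 0.17, against 50.9% of all genes and a median of 0.0034. At an unadjusted p under 0.05 there were 5, among them Orm1, Orm2, Orm3 and Cfb. Other acute-phase genes moved less, with log2 fold changes of 0.29 for Saa1, 0.15 for Saa2, 0.27 for Hp and -0.0058 for Cp. Without CC020 these were 0.13, 0.049, 0.21 and -0.040. Orm1, an orosomucoid secreted in the acute-phase response, ranged from 212 to 2362 CPM in the high group (median 724) and from 7.62 to 1103 CPM in the low group (median 620), with a log2 fold change of 1.54 ± 0.64 (q = 0.985). Orm2 had medians of 17.6 and 9.03 CPM (1.46 ± 0.62, q = 0.985) and Orm3 of 8.33 and 5.16 CPM (1.54 ± 0.73, q = 0.985). By edgeR and DESeq2 the log2 fold change of Orm1 was 0.64 and that of Orm3 0.63, well under these values, and that of Orm2 was 1.64 and 1.02. The 3 genes are close paralogs, and per the paper's methods only uniquely aligned reads were counted.

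Lcn2 in liver ranged from 0.708 to 397 CPM in the high group (median 6.45) and from 0.353 to 344 CPM in the low group (median 3.84). Its log2 fold change was 1.06 ± 0.74 (q = 0.985), or 0.41 by edgeR and 1.19 by DESeq2. Both ends were set by single mice. CC004 had 397 CPM of Lcn2 and 3566 CPM of Saa1, the serum amyloid protein, and CC016 of the low group had 344 and 1032 CPM. The liver of CC004 had the highest acute phase and complement list of 47 (1.96). Havcr1 was at most 0.637 CPM in any of these livers.

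The 4 genes that DESeq2 called in liver were Iqcg, Krt23, Mup12 and Mup18, with q of 0.985 to 0.987 by limma-voom. Iqcg had medians of 1.90 and 3.05 CPM and Krt23 of 2.79 and 9.20 CPM in the high and low groups, with single low livers at 40.0 and 149 CPM. The major urinary protein genes have near-identical copies, and only uniquely aligned reads were counted. Along the score as a number, limma-voom called 2 of 10151 liver genes (0.0197%), both rising, with 372 (3.66%) at an unadjusted p under 0.05. They were Ces2h, a carboxylesterase (q = 0.0878), and Cyp2c40, a cytochrome P450 (q = 0.0162), whose values ran from 0 to 143 and 0 to 186 CPM within the high group and from 0 to 149 and 0 to 88.8 CPM within the low group. Without CC020 it called 1 of 10221 (0.00978%), with 390 (3.82%) at an unadjusted p under 0.05. This was Ugt2b37, a glucuronosyltransferase (q = 0.00688), with its highest value, 33.8 CPM, in CC030, and 0 genes were called without both mice.

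In lung, Lcn2 did not follow the kidney score, with medians of 54.8 CPM in the high and 56.0 CPM in the low group (log2 fold change 0.10 ± 0.28, q = 0.998). All 7 tested neutrophil genes lay above 0 with a median of 0.57, against 53.2% of all genes and a median of 0.01, and 3 had an unadjusted p under 0.05. The neutrophil genes S100a9 (at most 1.36 CPM in any lung), Csf3r and Camp were too low to be tested. S100a8, a calcium-binding protein of neutrophils, ranged from 4.49 to 180 CPM in the high group (median 18.1) and from 2.25 to 94.8 CPM in the low group (median 9.73), with a log2 fold change of 1.02 ± 0.41 (q = 0.998). The highest values were those of CC004 and, in the low group, CC016. Cxcr2, the receptor that draws neutrophils to chemokines, had medians of 12.3 and 9.53 CPM (0.64 ± 0.29, q = 0.998). Pglyrp1, a peptidoglycan-binding protein of neutrophil granules, had medians of 11.6 and 6.77 CPM (0.91 ± 0.23, q = 0.826), and Glipr2 of 35.0 and 22.6 CPM (0.57 ± 0.13, q = 0.826).

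**Figure D5:**
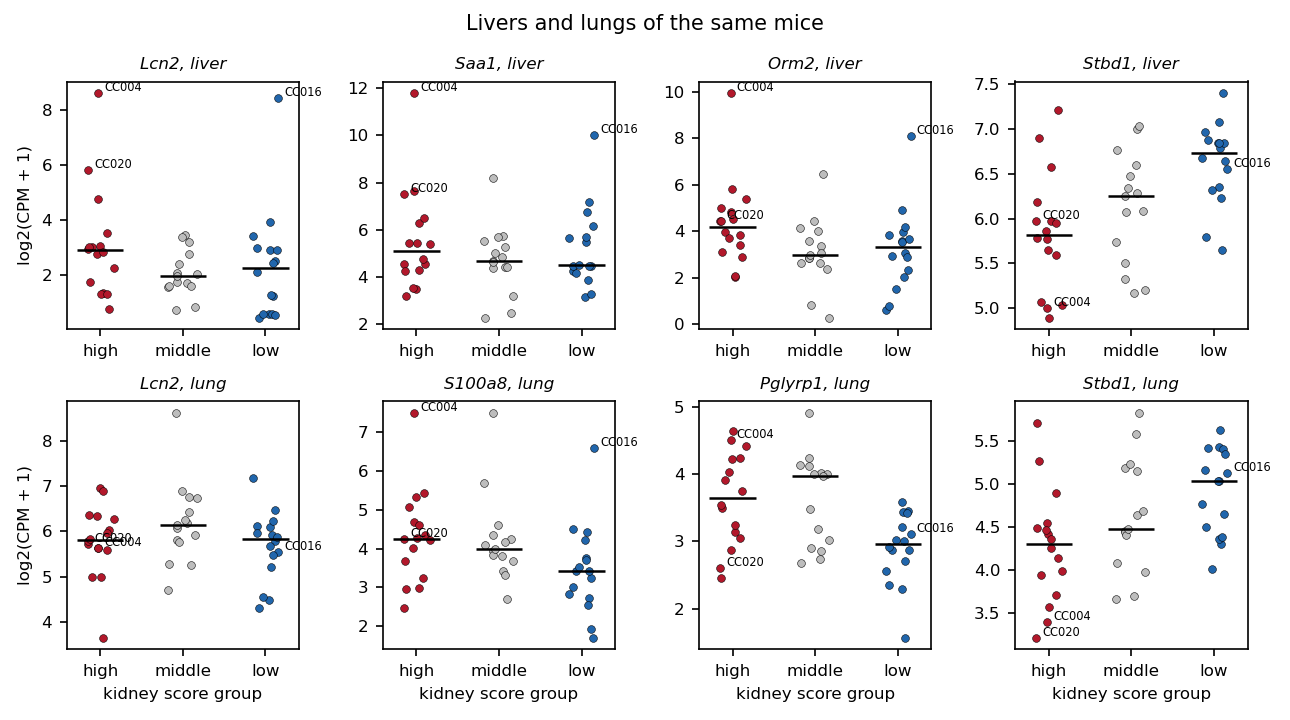
Lcn2, Saa1, Orm2 and Stbd1 in livers and Lcn2, S100a8, Pglyrp1 and Stbd1 in lungs of the 47 mice by the score group of their kidney, in log2(CPM + 1), with horizontal lines at the group medians and CC004, CC016 and CC020 named. CC004 is the highest liver for Lcn2, Saa1 and Orm2 with CC016 of the low group next to it, while CC020 follows them for liver Lcn2 and is lowest for lung Stbd1.

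Whether the group difference itself differs between tissues was tested with the mouse as a block. Of 12909 genes, 1 (0.00775%) differed between kidney and liver and 1 (0.00775%) between kidney and lung at q ≤ 0.1, beside 730 (5.65%) and 564 (4.37%) at an unadjusted p under 0.05. Acnat2, an acyltransferase of peroxisomes, averaged 85.4 ± 55.2 CPM (SD, n = 16) in high and 122 ± 66.2 CPM in low kidneys, and 52.9 ± 37.9 against 25.2 ± 28.3 CPM in livers. The difference of the effects was -1.96 ± 0.33 on the log2 scale (SE, limma-voom, q = 0.00146). Adgra3, an adhesion receptor, averaged 119.8 ± 29.9 CPM in high and 88.3 ± 29.8 CPM in low kidneys, and 90.9 ± 20.9 against 100.5 ± 20.3 CPM in lungs, with a difference of 0.63 ± 0.12 (q = 0.0136). Neither gene was called within a tissue. Both differences stood without CC020 (q = 0.00494 and 0.0199) and neither on total counts without TMM (q = 0.171 for Acnat2 and 0.99987 for Adgra3). Without the mouse as a block, Acnat2 passed (q = 0.0898) and Adgra3 did not (q = 0.628).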

How the data were processed

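Total RNA of liver, lung and kidney from 47 strains was sequenced in single-end reads of 50 bases. Per the labels, the authors aligned reads with STAR 2.5.3a and quantified them with RSEM against mm9, and per the paper's methods to a genome made for each strain. The expected count deposited by the authors for each of 24423 genes was rounded before use, and 25 values were not whole. TPM as deposited by the authors served the tissue check only, and FPKM was not used.

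The kidney score, groups and gene lists were chosen with earlier results of these data known. Counts without Rn45s were scaled by TMM (edgeR 4.0.16). Genes over 1 CPM in at least 30% of libraries were tested with limma-voom (limma 3.58.1, R 4.3.3), 16 against 16 mice per tissue, with q ≤ 0.1 after Benjamini-Hochberg adjustment. The test of tissue differences used the mouse as a replicate block, which comes from the labels and the 1 mouse per strain. CPM of single kidneys other than the score were scaled over all 47. A count of 3 was the smallest taken as resolved, or 0.211 to 1.50 CPM per kidney of both groups. The naming rule took genes past q ≤ 0.1 whose higher group averaged 5 CPM or more, 8 per direction by fold in kidney and 5 in liver and lung, and up to 3 per list by p in kidney. It gave no gene in the group comparisons, so the genes named there, along the score and in CC020 were chosen after their values were seen. Library totals were compared with 100000 permutations. Alternatives covered the test (DESeq2 1.42.0, edgeR), scaling, filter, thresholds, 12 against 12, the score as a number, single scoring genes, covariates and, added after seeing the data, leaving out CC020 or CC030 and treating Lars2 separately. The fits were tested on simulated data. Python 3.11.15, pandas 2.3.3 and scipy 1.17.1 were used. The paper fitted sequencing batch as a covariate, but the labels do not give the batches. They were not analysed here, and whether they line up with the score groups is not known. P-values measure the spread between mice of different strains, together with any spread between batches.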

Additional observations from a re-analysis of the deposited data

Results flagged for a closer look

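Acnat2 was picked out because its group difference was in opposite directions in kidney and liver, with a difference of -1.96 (log2, q = 0.00146 by limma-voom). The effect was -0.56 ± 0.27 in kidney and 1.31 ± 0.38 in liver (SE, 16 against 16 mice in each tissue). Adgra3 was picked out for its difference of 0.63 between kidney and lung (q = 0.0136), where the effects were 0.47 ± 0.14 and -0.18 ± 0.11. Each is 1 of 12909 genes tested.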

How the results depend on the processing

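The count of 0 called genes in kidney held in 17 of 21 alternatives, of which 3 were stricter thresholds, and became 5 with DESeq2, 227 with the score as a number, 1 (Acy1) with log2 total as a covariate and 1 (Sypl2) with Lcn2 alone. In liver it became 4 with DESeq2, 2 with the score as a number and 1 without CC020 in that fit, and in lung 1 (Stbd1) with Lcn2 alone. Without the replicate block, 1 gene differed between kidney and liver and 0 between kidney and lung, and on total counts 0 and 0. Of 43 gene values recomputed under the alternatives, Vim in kidney (-0.043), Mup12 in liver (0.11) and Stbd1 in lung (0.019) changed sign with Havcr1 alone, and Lcn2 in lung with the score as a number (-0.054, or -0.057 without CC020) and with Lcn2 alone (-0.19). Of the recomputed values, 697 kept their sign and their side of the threshold, and 28 kept their sign and passed only under an alternative. Named genes outside this set were not all recomputed, and Egf in kidney (slope 0.02 without CC020) and Saa1 in liver (slope -0.020 without CC020) changed sign along the score. The score is limited by depth, with 3 or fewer counts of Havcr1 in 13 low and 4 high kidneys. It is also limited by the scoring gene, since Havcr1 alone kept 11 high and 10 low kidneys.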

Other observations

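Stbd1, a protein that anchors glycogen, was lower in all 3 tissues of the mice with high kidney scores without passing in any. In kidney it was at 1.19 to 23.5 CPM in the high group (median 3.53) and at 1.90 to 33.3 CPM in the low group (median 22.4), with a log2 fold change of -1.55 ± 0.48 (SE, limma-voom, q = 0.633). In liver the medians were 55.5 and 105 CPM (-0.80 ± 0.20, q = 0.606), and in lung 18.8 and 31.8 CPM (-0.78 ± 0.19, q = 0.826). The 3 tissues come from the same mice, and the gene was chosen after its values were seen.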
